A study of Mus musculus with 6 samples.

Results

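The genes described here are 9 genes by which follicular dendritic cells and related lymphoid stromal cells are recognised: Cr2, Fcer2a, Mfge8, Clu, Coch, Pdpn, Vcam1, Icam1 and Madcam1. They were chosen by symbol and not by a rule on measured values, but with earlier results of these data known. All 9 were present among the 23358 gene entries of the count table. RNA was sequenced from 6 spontaneous tumors, each from a different female mouse. Every animal carried NT3, an allele of the NF-κB-inducing kinase NIK that lacks the TRAF3 binding domain and is switched on when Cre removes a STOP cassette, on a C57Bl/6J background. In the 3 Osx-Cre;NT3 mice Cre was under the Osterix (Sp7) promoter in a Tet-OFF transgene, held off by doxycycline in the chow up to weaning, on mixed C57Bl/6J and CD1 stock, and in the 3 FSP1-Cre;NT3 mice it was under the S100a4 promoter on FVB/n stock. Osx-Cre;NT3 tumors 13, 18 and 25, named by mouse number, were from the trunk and had latencies of 150, 168 and 115 days. FSP1-Cre;NT3 tumors 27 and 36 were perineal and tumor 29 was from the trunk, with latencies of 101, 52 and 72 days respectively. Line, site, genetic background and latency therefore differed together and cannot be told apart, and both drivers have been reported to act also in hematopoietic cells. No normal lymphoid tissue was analysed here.

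Follicular dendritic cells are stromal cells of the B cell follicle that hold antigen on their surface through complement and Fc receptors and feed dying B cells to neighbouring phagocytes. They arise from perivascular and reticular stromal precursors, and their development and upkeep depend on lymphotoxin and TNF, which act through NIK, RelB and the NF-κB2 protein p52. Because NT3 drives that same branch of NF-κB, the levels of these genes bear on the question of which features of lymphoid stroma, if any, the tumors carried.

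Total counts ranged from 51824408 to 163297772 per tumor, and every count was even. At these depths 3 counts, the limit that a count of 0 allows, corresponded to 0.0195 to 0.0621 CPM (counts divided by a TMM-scaled library size). If both ends of each read pair were counted, which even counts allow, 3 fragments are 6 counts and the limit is 0.0390 to 0.124 CPM. Such limits cover counting error only, and for most members the spread between tumors was far larger. Tumor 36 stood apart in several marker sums: 6 simple epithelial genes summed to 4744 CPM there and to between 620 and 1188 CPM in the other tumors, 6 smooth muscle and pericyte genes to 2395 against 380 to 913 CPM, and 6 basal keratinocyte genes to 5670 against 9954 to 14245 CPM. In whole tumor RNA, fewer cells of a type and less RNA per cell cannot be told apart.

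The levels of the 9 genes spanned almost the whole range of expression in these tumors. Compared per length with the deposited RPKM values (reads scaled to gene length and library size), Clu and Mfge8 were among the most abundant transcripts of the tumors, Pdpn, Icam1 and Vcam1 came next, and Coch, Cr2, Madcam1 and Fcer2a were far lower. Clu had 1010 ± 436 RPKM (SD, n = 6) and ranked 67 by mean among the 23358 entries, and Mfge8 had 659 ± 219 RPKM and ranked 96. Their ranges over tumors overlapped, although Clu exceeded Mfge8 within each of the 6 tumors. Pdpn had 182 ± 61.0 RPKM, Icam1 106 ± 37.7 RPKM and Vcam1 62.6 ± 9.58 RPKM, with ranks of 287, 484 and 933. Each of these genes also exceeded the next one in 6 of 6 tumors, but the order of Icam1 and Vcam1 rested on a small margin in tumor 36, where Icam1 had its lowest value of 51.0 RPKM and Vcam1 its lowest of 49.8 RPKM. Coch had 9.56 ± 10.2 RPKM and Cr2 4.35 ± 2.64 RPKM, and these neighbours could not be ordered, since Coch was higher in 3 tumors and Cr2 in the other 3. Madcam1 had 2.22 ± 3.87 RPKM, below Cr2 in 5 of 6 tumors, and Fcer2a was the lowest of the 9 at 0.147 ± 0.0707 RPKM, with a rank of 15773.

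**Figure D1:**
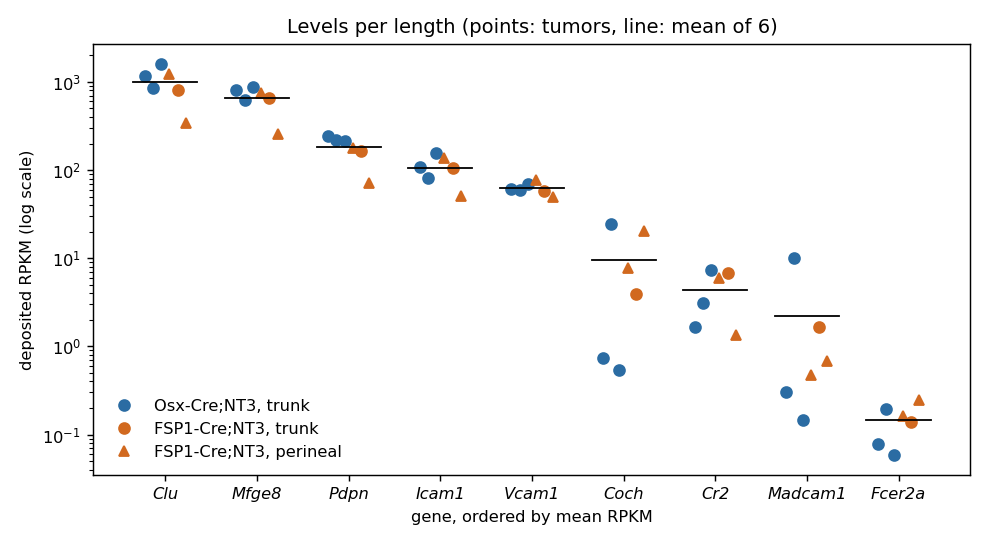
Deposited RPKM on a log axis for the 9 genes, ordered by their mean, with 1 point per tumor, colored by Cre line and shaped by site, and a line at the mean of 6 tumors. Clu and Mfge8 have at least 346 and 254 RPKM in every tumor, Fcer2a has at most 0.246 RPKM, and the points of Coch and Madcam1 spread over more than a factor of 10.

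Of the genes that define the follicular dendritic cell most closely, Cr2, the complement receptor that retains opsonised antigen, was present in every tumor at a modest level. Fcer2a, the low-affinity IgE receptor CD23, was low in every tumor. On mm10 the deposited positions are chr1:195136811-195176715 for Cr2 and chr8:3681737-3694174 for Fcer2a, and no other annotated gene shares exon bases with either. Cr2 had 13.9, 25.3 and 55.7 CPM in Osx-Cre;NT3 tumors 13, 18 and 25, and 41.7, 52.6 and 10.3 CPM in FSP1-Cre;NT3 tumors 27, 29 and 36. The highest and the lowest values, 5.38-fold apart, were thus found in different lines, and the lines overlapped fully (31.6 ± 21.6 against 34.9 ± 21.9 CPM, SD, n = 3 each, log2 fold change 0.14 with a standard error of 0.69). Fcer2a had 0.248, 0.610 and 0.169 CPM in the Osx-Cre;NT3 tumors and 0.430, 0.410 and 0.717 CPM in the FSP1-Cre;NT3 tumors, from as few as 12 counts in tumors 13 and 25. These values lay above both limits set by depth in all 6 tumors but gave no separation of the lines (log2 fold change 0.58, standard error 0.62).

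Cr2 is also carried by mature B cells, so its level was read beside that of B cell genes. Ms4a1 (CD20) had at most 1.09 CPM, and in tumors 13 and 25 its 0.0828 and 0.0563 CPM were above the lower of the limits given for depth but below the limit for pairs counted at both ends. Cd79a, part of the B cell receptor, had at most 5.36 CPM. The order of the tumors differed from marker to marker: Ms4a1 and Cd79a were highest in tumor 36, where Cr2 was lowest, whereas Blk, a B cell kinase, was highest in tumor 25 at 11.6 CPM and lowest in tumor 36 at 4.52 CPM, as Cr2 was. Pax5 was also highest in tumor 25, at 0.169 CPM. Per length, Cr2 had from 1.35 to 7.30 RPKM and Ms4a1 from 0.0223 to 0.429 RPKM, and Cr2 was above Ms4a1 in each of the 6 tumors. Cd37, with 4.71 to 9.34 RPKM, was above Cr2 in tumors 13, 18, 27 and 36 and below it in tumors 25 and 29. Cd79b, with 4.26 to 6.82 RPKM, was above Cr2 in tumors 13, 18 and 36 and below it in the others. In CPM, Cd79b had between 6.53 and 10.8, Cd37 between 7.10 and 14.6 and Cd22 between 5.32 and 9.61. The 8 markers summed to 31.5 to 48.0 CPM in Osx-Cre;NT3 and to 35.4 to 41.4 CPM in FSP1-Cre;NT3 tumors, and none of the 8 was at 0 over all tumors. Which cells of the tumors held the Cr2 RNA was not tested.

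Genes known from follicular dendritic cells outside the 9 did not share one level either. Cxcl13, the chemokine by which these cells draw B cells into the follicle, had 0.290, 9.01 and 0.141 CPM in tumors 13, 18 and 25, and 4.79, 4.15 and 15.6 CPM in tumors 27, 29 and 36. It was therefore near absent in tumors 13 and 25, which also held the 2 lowest levels of Coch and of Madcam1, whereas Cr2 was at its highest in tumor 25. Fcgr2b, the inhibitory IgG receptor that holds immune complexes, had from 29.6 to 169 CPM, and Prnp, the prion protein, from 351 to 676 CPM. C4b, a complement component, had from 1.08 to 85.9 CPM, with the highest value in tumor 36. The label of the 9 genes was thus met only in part in these tumors: Cr2, Clu, Mfge8, Pdpn, Icam1 and Vcam1 were present throughout. Fcer2a was low in every tumor, with 12 to 94 counts, and Madcam1, Coch and Cxcl13 were low in some tumors. Most of the abundant members are known from many other stromal and epithelial cells as well.

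**Figure D2:**
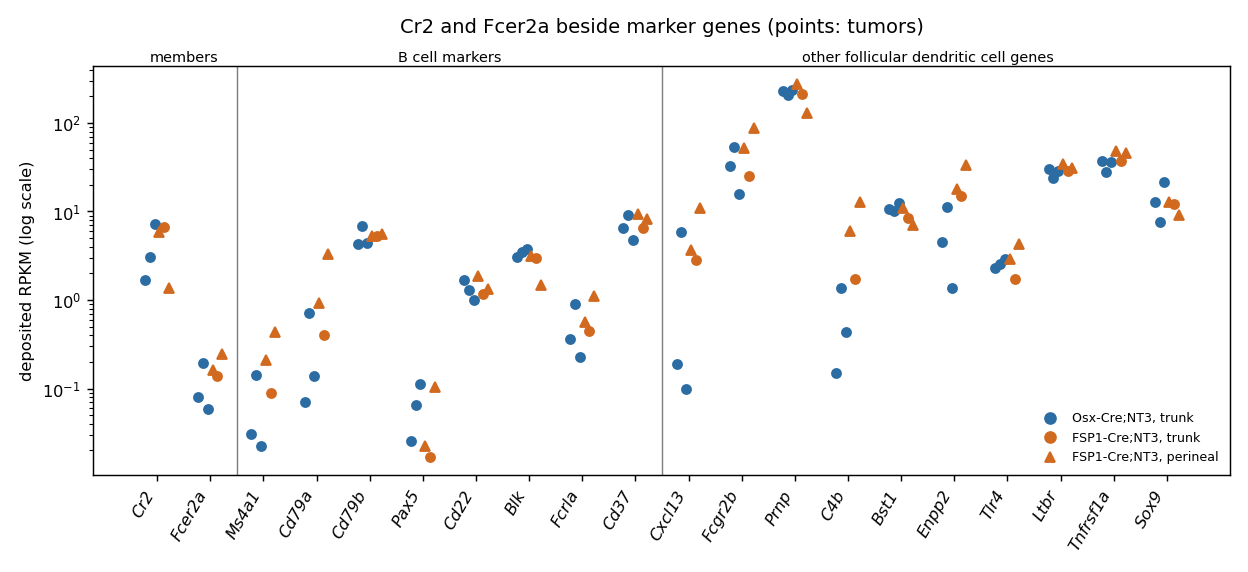
Deposited RPKM on a log axis for Cr2 and Fcer2a, 8 B cell markers and 10 other genes known from follicular dendritic cells, with 1 point per tumor, colored by Cre line and shaped by site. Cr2 lies between 1.35 and 7.30 RPKM, above Ms4a1 in every tumor but below Cd37 in tumors 13, 18, 27 and 36. Cxcl13 and C4b range more widely than Cr2.

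The Cr2 promoter is shown for this receptor, as the 250 bases before the RefSeq start on GRCm38.p6, written 5′ to 3′ in the direction of transcription. A search on both strands for the κB consensus, the sequence class bound by NF-κB dimers, found no match in this window, and a 9-letter form, GGAANTTCC, had none either. The κB consensus was present in 9.55% of 32851 promoter windows of this length and the 9-letter form in 0.813%. Of the 9 members, 7 had a RefSeq promoter entry, and Clu and Vcam1 had none.
Cr2 promoter, chr1:195176720-195176969 (-): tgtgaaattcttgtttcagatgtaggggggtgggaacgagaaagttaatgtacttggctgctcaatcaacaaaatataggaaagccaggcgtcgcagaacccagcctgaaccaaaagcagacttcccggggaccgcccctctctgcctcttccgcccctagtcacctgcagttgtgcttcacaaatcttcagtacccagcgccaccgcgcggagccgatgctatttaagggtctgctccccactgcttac

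Mfge8 and Clu, both secreted, were the most abundant of the 9 transcripts. Mfge8, the milk fat globule protein through which dying cells are bound for engulfment and which follicular dendritic cells secrete as the FDC-M1 antigen, had 2285, 1738 and 2269 CPM in tumors 13, 18 and 25, and 1790, 1759 and 666 CPM in tumors 27, 29 and 36. Clu, the extracellular chaperone clusterin used as a marker of follicular dendritic cells, had 2839, 2062 and 3588 CPM in the Osx-Cre;NT3 tumors and 2546, 1844 and 772 CPM in the FSP1-Cre;NT3 tumors. Tumor 36 was the lowest for both genes, 3.43-fold below the highest tumor for Mfge8 and 4.65-fold for Clu, and the other tumors of the lines overlapped. By line, neither difference exceeded the tumor-to-tumor spread (log2 fold change -0.58, standard error 0.41, for Mfge8, and -0.72, standard error 0.46, for Clu). Of the 6 milk genes of the marker lists, only the casein gene Csn2 exceeded 0.788 CPM; it had 209, 82.3 and 347 CPM in the Osx-Cre;NT3 tumors and 115, 111 and 56.4 CPM in the FSP1-Cre;NT3 tumors. Of the 6, 2 were lowest in tumor 36, and the part of secretory epithelium in the Mfge8 level was not tested.

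Coch (chr12:51593341-51605773), which encodes the secreted matrix protein cochlin, was among the most variable genes of the tumors. It had 2.65, 86.0 and 1.77 CPM in tumors 13, 18 and 25, and 23.3, 13.1 and 67.0 CPM in tumors 27, 29 and 36. The 48.5-fold difference between the highest and the lowest tumor lay within the Osx-Cre;NT3 line, and the FSP1-Cre;NT3 tumors all fell between these extremes. The log2 range of Coch over the 6 tumors, 5.58, was exceeded by 2.62% of genes tested, whose median range was 1.24. The means of the lines differed by less than their SDs (30.1 ± 48.4 against 34.5 ± 28.6 CPM), and the fitted log2 fold change of 0.19 (standard error 1.42) depended on tumor 18, without which it was 3.96.

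Among the adhesion genes, Pdpn (chr4:143267422-143299507), the mucin-like ligand of CLEC-2 carried by reticular and follicular dendritic stroma, by lymphatic endothelium and by basal keratinocytes, had 572, 512 and 466 CPM in tumors 13, 18 and 25, and 354, 369 and 156 CPM in tumors 27, 29 and 36. Every FSP1-Cre;NT3 tumor was below every Osx-Cre;NT3 tumor, and both perineal tumors were below all 4 trunk tumors. Pdpn was the only member whose groups did not overlap, 1 of 9, where 8.02% of all genes tested were lower in FSP1-Cre;NT3 without overlap and 9.44% were lower in perineal tumors without overlap. No member was higher without overlap, as 9.02% of genes were in FSP1-Cre;NT3 and 10.2% in perineal tumors. The mean was 516 ± 53.4 CPM in Osx-Cre;NT3 and 293 ± 119 CPM in FSP1-Cre;NT3 tumors, a log2 fold change of -0.82 with a standard error of 0.35. By edgeR's quasi-likelihood test this gave an unadjusted p of 0.0513 and a Benjamini-Hochberg adjusted p of 0.458, so the difference did not pass the threshold of 0.05. The 6 basal keratinocyte genes summed to 9954 to 14245 CPM in Osx-Cre;NT3 and to 5670 to 12806 CPM in FSP1-Cre;NT3 tumors, and their part in the level of Pdpn was not tested. The 4 lymphatic endothelial genes, of which Ccl21a had 0 counts, summed to 13.4 to 21.6 CPM in Osx-Cre;NT3 and to 37.8 to 55.8 CPM in FSP1-Cre;NT3 tumors. Their part in the level of Pdpn was not tested either.

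Vcam1, the ligand by which follicular dendritic cells and activated endothelium hold leukocytes through the integrin α4β1, was the steadiest of the 9 genes. It had 277, 268 and 293 CPM in the Osx-Cre;NT3 tumors and 296, 246 and 209 CPM in the FSP1-Cre;NT3 tumors. The highest and the lowest values were only 1.41-fold apart, and 90.9% of genes tested had a wider range. Icam1, the ligand of the leukocyte integrin LFA-1, had 363, 271 and 487 CPM in the Osx-Cre;NT3 tumors and 392, 334 and 160 CPM in the FSP1-Cre;NT3 tumors. Tumor 25 was the highest and tumor 36 the lowest for Icam1, and the lines overlapped (374 ± 108 against 295 ± 121 CPM). In the annotation, Vcam1 shares 61 exon bases with the antisense gene Gm43109 and Icam1 shares 511 with the antisense gene Gm47079. Neither antisense gene was among the gene entries. Unless strand was used in counting, their reads from these stretches could be counted to Vcam1 or Icam1.

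Madcam1, the mucosal addressin that binds the integrin α4β7 and also marks stromal cells at the margin of the follicle, had the widest range of the 9 genes. It had 0.580, 18.8 and 0.253 CPM in tumors 13, 18 and 25, and 0.767, 2.98 and 1.18 CPM in tumors 27, 29 and 36. Tumor 18 was 74.3-fold above tumor 25 of the same line, and the FSP1-Cre;NT3 tumors lay in between. The log2 range of 6.08 was exceeded by 2.02% of genes tested. The fitted log2 fold change between the lines of -2.00 (standard error 1.52) was set by tumor 18, since it was 1.98 without it.

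The promoter windows of Madcam1 and Icam1 are shown because they were the only members with a match, each 250 bases before the RefSeq start on GRCm38.p6 and written 5′ to 3′ along the gene. In the Madcam1 window the capitals mark 3 matches to the κB consensus, at bases 191 to 182, 83 to 74 and 70 to 61 before the start. In the Icam1 window the capitals mark the 9-letter form, GGAAATTCC, at bases 153 to 145 before the start; that form was searched after the windows had been seen. These matches describe the letters only, and no binding was measured in the tumors.
Madcam1 promoter, chr10:79664309-79664558 (+): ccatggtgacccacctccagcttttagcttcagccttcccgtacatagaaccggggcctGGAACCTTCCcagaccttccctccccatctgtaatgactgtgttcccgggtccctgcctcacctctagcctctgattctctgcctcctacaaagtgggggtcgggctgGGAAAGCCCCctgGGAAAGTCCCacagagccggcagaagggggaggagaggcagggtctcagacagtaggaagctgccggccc
Icam1 promoter, chr9:21015690-21015939 (+): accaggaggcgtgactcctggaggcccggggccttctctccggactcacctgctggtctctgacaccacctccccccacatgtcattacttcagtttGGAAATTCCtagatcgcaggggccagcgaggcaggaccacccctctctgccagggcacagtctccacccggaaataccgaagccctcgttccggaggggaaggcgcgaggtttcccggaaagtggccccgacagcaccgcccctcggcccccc

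**Figure D3:**
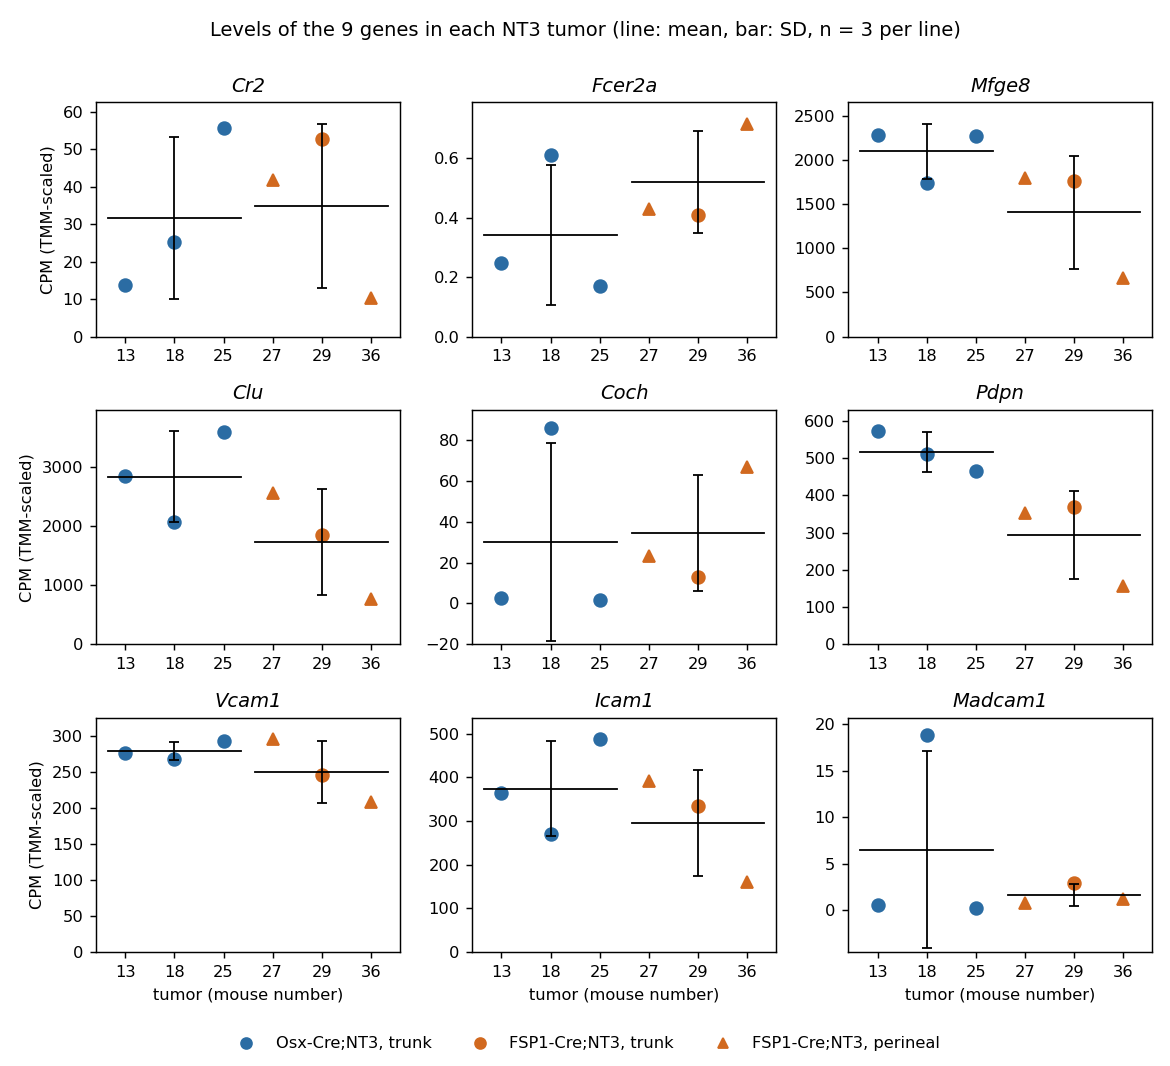
CPM of each of the 9 genes in the 6 tumors, with tumors by mouse number on the x axis, colored by Cre line and shaped by site, a black line at the mean of each line and a bar of 1 SD (n = 3), which runs below 0 for Coch and Madcam1. Pdpn is the only gene whose lines do not overlap, tumor 18 stands above the rest for Madcam1, and tumor 36 is the lowest for Mfge8, Clu, Pdpn, Vcam1, Icam1 and Cr2.

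Between the lines, 6 of 9 members had a lower fitted level in FSP1-Cre;NT3 tumors (Madcam1, Mfge8, Clu, Pdpn, Vcam1 and Icam1) and 3 a higher one (Cr2, Fcer2a and Coch), with a median log2 fold change of -0.34 beside 0.01 over all 16415 genes tested. After Benjamini-Hochberg adjustment of edgeR's quasi-likelihood test, none of the 9 members passed 0.05, where 0% of all genes tested did. At an unadjusted p under 0.05 there were 0 of the 9, where 10.8% of all genes passed, 7.31% higher and 3.47% lower in FSP1-Cre;NT3. DESeq2 called 0 of the members and 2.56% of all genes tested, 2.14% higher and 0.414% lower. The adjusted p-values by edgeR were 0.458 for Pdpn, 0.525 for Clu, 0.553 for Mfge8, 0.586 for Madcam1, 0.708 for Fcer2a, 0.721 for Icam1, 0.749 for Vcam1, 0.941 for Cr2 and 0.960 for Coch. Within the trunk tumors alone, where only tumor 29 stood for FSP1-Cre;NT3, Pdpn had a log2 fold change of -0.49, Clu of -0.62 and Mfge8 of -0.26, while Cr2 had 0.73 and Coch turned to -1.22. With 3 tumors per line, a biological coefficient of variation of 0.478 and a smallest adjusted p of 0.359 over all genes, differences of the size seen in most members were within the spread of the tumors. DESeq2 without tumor 18 called 1 member, Coch, higher in FSP1-Cre;NT3 (log2 fold change 3.96, adjusted p 1.4e-05), where 2.63% of all genes in that fit were called higher. By edgeR's quasi-likelihood test without tumor 18, the adjusted p of Coch was 0.557, so it was not called.

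By site, 7 of 9 members had a lower fitted level in the 2 perineal than in the 4 trunk tumors, and Fcer2a and Coch a higher one, although Vcam1 turned to 0.0034 with library sizes alone. The median log2 fold change was -0.51 beside -0.02 over the 16971 genes tested. Again no member passed 0.05 in edgeR's quasi-likelihood test after Benjamini-Hochberg adjustment, where 0% of genes did. At an unadjusted p under 0.05 there was 1 member, Pdpn, where 10.5% of genes passed, 8.88% higher and 1.63% lower in perineal tumors, and DESeq2 called 0 members and 3.56% of genes. Pdpn had 255 ± 140 CPM in perineal and 480 ± 85.5 CPM in trunk tumors, a log2 fold change of -0.91 with a standard error of 0.38. Its unadjusted p by edgeR's quasi-likelihood test was 0.0483 and its Benjamini-Hochberg adjusted p was 0.475. Within FSP1-Cre;NT3, the site difference of Pdpn was -0.54 on the log2 scale, that of Mfge8 -0.52, of Cr2 -1.02 and of Coch 1.77, each from 2 perineal tumors against tumor 29. Without tumor 27, tumor 36 alone stood for the perineal site, assumed to vary like the trunk tumors, and DESeq2 then called 3 members lower: Mfge8 (log2 fold change -1.59, adjusted p 0.000536), Pdpn (-1.61, adjusted p 0.00122) and Clu (-1.74, adjusted p 0.00994), where 1.71% of all genes in that fit were called lower. Without tumor 18 DESeq2 called 1, Coch, higher in perineal tumors (2.96, adjusted p 0.0211), where 3.74% of genes were called higher. By edgeR's quasi-likelihood test without tumor 18, the adjusted p of Coch by site was 0.371, so it was not called. Nor did edgeR call Mfge8, Pdpn or Clu by site without tumor 27.

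**Figure D4:**
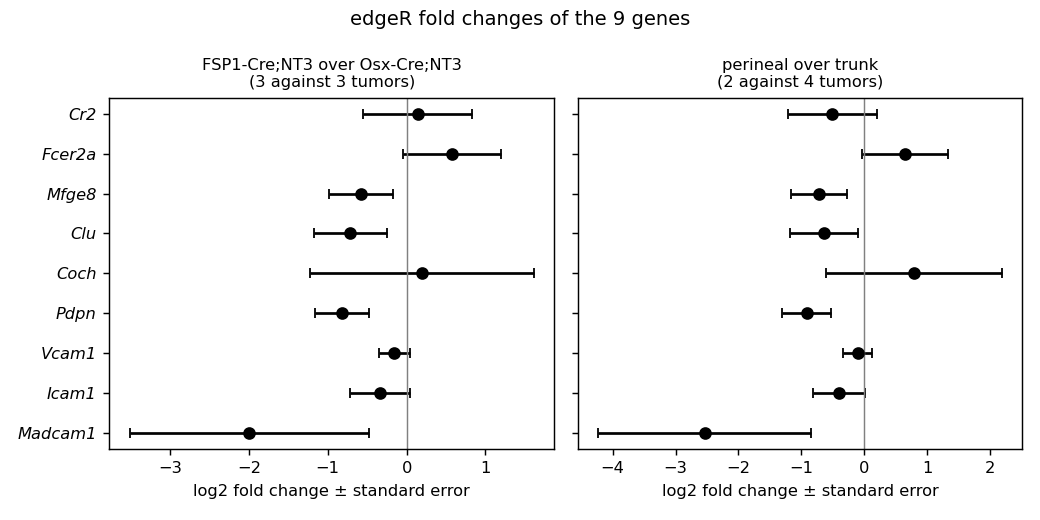
Log2 fold changes of the 9 genes with their standard errors from edgeR's quasi-likelihood fit, by line on the left (FSP1-Cre;NT3 over Osx-Cre;NT3) and by site on the right (perineal over trunk). The values run from -2.00 to 0.58 by line and from -2.54 to 0.80 by site, the bars of Madcam1 and Coch are the widest, and Pdpn lies at -0.82 and -0.91.

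Single tumors held the extreme values of several of the 9 genes. Because tumor 36 is 1 of 2 perineal and of 3 FSP1-Cre;NT3 tumors, a single tumor and a group cannot be told apart there. Tumor 36 had the lowest value of 6 members (Cr2, Mfge8, Clu, Pdpn, Vcam1 and Icam1), where 24.0% of all genes tested were lowest in that tumor, and it had the highest value of Fcer2a. On the log2 scale, tumor 36 was below the mean of the other 5 tumors by -1.69 for Cr2 and Clu, -1.55 for Mfge8, -1.51 for Pdpn, -1.18 for Icam1 and -0.39 for Vcam1. The higher simple epithelial and smooth muscle sums and the lower basal keratinocyte sum of tumor 36 moved with these values. So did the share of counts on the ribosomal precursor Rn45s, 13.3% in tumor 36 and 5.28% to 10.2% in the others, and the part of any of these was not tested. Tumor 18, the most deeply sequenced, had the highest value of Madcam1 and Coch, and 22.8% of all genes tested were highest there.

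As a description of shared patterns over the 6 tumors, the root mean square difference of centred log2 CPM was smallest among members between Mfge8 and Clu (0.196), Mfge8 and Pdpn (0.198), Mfge8 and Icam1 (0.235) and Clu and Icam1 (0.257). These 4 genes share the low value of tumor 36. Over all genes tested, the profile nearest to Mfge8 was that of 1110032F04Rik (0.0852), to Clu that of Lpo (0.106), to Pdpn that of Bmyc (0.0759), to Icam1 that of Kcnma1 (0.0671) and to Vcam1 that of 9030624J02Rik (0.0264). The search ran over all genes tested, the other members among them, so it cannot show whether the members share a pattern. The nearest to Cr2 was 4931402G19Rik (0.192), to Fcer2a Gm5127 (0.0794), to Madcam1 Cyp2a5 (0.201) and to Coch Oas1g (0.425), and where such genes have few counts the prior count of 2 draws their profiles together.

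**Figure D5:**
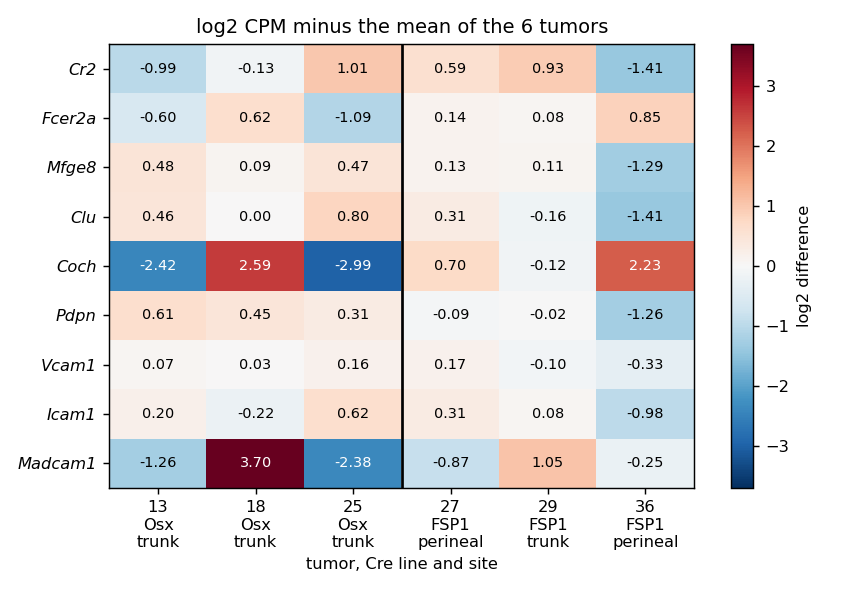
Log2 CPM (prior count 2) of each gene minus its mean over the 6 tumors, with genes in rows and tumors in columns, red above and blue below the mean. The column of tumor 36 is blue for Cr2, Mfge8, Clu, Pdpn, Vcam1 and Icam1, and the strongest reds are Madcam1 at 3.70 and Coch at 2.59 in tumor 18.

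The receptors that meet these ligands on leukocytes were measured beside them. Itga4, the α4 chain that pairs for VCAM1 and MAdCAM1, had 7.91, 9.10 and 12.0 CPM in Osx-Cre;NT3 and 21.6, 9.28 and 23.4 CPM in FSP1-Cre;NT3 tumors. Itgal and Itgb2, the chains of LFA-1, had from 26.6 to 56.7 CPM and from 35.7 to 81.1 CPM, and Clec1b, the receptor of podoplanin on platelets, at most 0.416 CPM. Itgb3, which with Itgav binds Mfge8, had 5.78 to 13.7 CPM in Osx-Cre;NT3 and 17.7 to 28.3 CPM in FSP1-Cre;NT3 tumors. Of the 13 counter-receptors and partners, 0 were called by line with edgeR's quasi-likelihood test, 2 had an unadjusted p under 0.05 and were higher in FSP1-Cre;NT3 (Itgb3 and C3), DESeq2 called C3 alone, and the median log2 fold change was 0.18. By site, edgeR called 0, DESeq2 called Itga4, Itgam and C3 higher in perineal tumors, and the median was 0.51. Over all genes tested, 7.31% were higher in FSP1-Cre;NT3 at an unadjusted p under 0.05 by edgeR. DESeq2 called 2.56% of all genes by line and 3.56% by site, and their median log2 fold changes were 0.01 and -0.02.

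The signals that shape follicular dendritic cells gave no call between the lines. Of 13 genes of the lymphotoxin, TNF and RANK ligand pathways, edgeR and DESeq2 called 0 by line, 0 had an unadjusted p under 0.05, and the median log2 fold change was -0.11. Among all genes tested by line, 10.8% passed that unadjusted p by edgeR and DESeq2 called 2.56%. Ltb, the membrane-bound lymphotoxin chain, had 61.9, 77.5 and 41.3 CPM in Osx-Cre;NT3 and 47.2, 42.5 and 34.2 CPM in FSP1-Cre;NT3 tumors, and Ltbr, its receptor, was nearly level at 66.1 to 84.1 CPM. Nfkb2 and Relb, which act downstream of NIK, were lowest in tumor 36 at 190 and 85.0 CPM, against 308 to 582 and 195 to 229 CPM in the other tumors. Map3k14, the gene of NIK itself, had 38.7 to 118 CPM in Osx-Cre;NT3 and 43.4 to 103 CPM in FSP1-Cre;NT3 tumors, with reads of the endogenous gene and of the transgene not separated.

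Other genes of lymphoid stroma and of endothelial adhesion had positive median log2 fold changes toward FSP1-Cre;NT3, but edgeR called none of them. At an unadjusted p under 0.05 by edgeR, 7.31% of all genes tested by line were higher in FSP1-Cre;NT3 and 3.47% lower. DESeq2 called 2.14% of all genes higher by line and 0.414% lower. The shares by site were 8.88% higher and 1.63% lower in perineal tumors by edgeR's unadjusted p, and 3.56% called in either direction by DESeq2. Of 9 tested lymphoid stromal genes, edgeR called 0 by line, 5 had an unadjusted p under 0.05 and were higher in FSP1-Cre;NT3 (Cxcl12, Pdgfra, Pdgfrb, Grem1 and Des), 1 was lower (Il7), and the median log2 fold change was 1.45. DESeq2 called 3 of them, all higher: Cxcl12, Pdgfra and Grem1. By site, edgeR called 0, 6 were higher in perineal tumors at an unadjusted p under 0.05 and 1 was lower, and DESeq2 called Cxcl12, Pdgfra, Grem1 and Des higher and Il7 lower. Within this group, Des was high in tumor 36 alone, at 292 CPM against 9.52 to 17.9 CPM in the other tumors. Its lines and its sites overlapped. The 7 fibroblast markers, of which Pdgfra is 1, moved with this group by line: they summed to 5217 to 6824 CPM in Osx-Cre;NT3 and to 11673 to 15118 CPM in FSP1-Cre;NT3 tumors, 5 of 7 were higher at an unadjusted p under 0.05, DESeq2 called 4, and their part was not tested. Of 12 tested endothelial adhesion genes, edgeR called 0, 5 had an unadjusted p under 0.05 and were higher in FSP1-Cre;NT3 (Sele, Selp, Pecam1, Jam2 and Cd34), DESeq2 called Sele, Selp and Jam2, and the median was 0.78. Selp, the P-selectin of activated endothelium, had 4.84, 2.57 and 3.44 CPM in Osx-Cre;NT3 and 39.0, 10.3 and 22.9 CPM in FSP1-Cre;NT3 tumors, without overlap, beside Vcam1 and Icam1, whose lines overlapped. Of all genes tested, 9.02% were higher in FSP1-Cre;NT3 without overlap. The 8 endothelial markers summed to 153 to 372 CPM in Osx-Cre;NT3 and to 398 to 540 CPM in FSP1-Cre;NT3 tumors, and their part in these values was not tested. Of the 10 other genes of follicular dendritic cells, edgeR called 0 by line, C4b and Enpp2 had an unadjusted p under 0.05 and were higher in FSP1-Cre;NT3, DESeq2 called C4b alone, and the median was 0.20. Ccl21a was listed at 0 counts in all 6 tumors, but it has near-identical copies and its level is uncertain.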

How the data were processed

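RNA-seq of 6 tumors was analysed from 1 table with, per gene and tumor, a count and an RPKM value. The authors deposited raw counts without normalization. The authors also deposited RPKM values, scaled to the deposited gene length and to library totals larger than the summed gene counts; these served only to compare levels between genes. Reads were trimmed and aligned to mm10. The paper's methods name HISAT2 and featureCounts, whereas the submitters' processing notes name bcl2fastq, TopHat2 2.0.6 and HTSeq; which of these made the table, the annotation and the strand setting are not given in the sources used here. No column of per-sample values was left out.

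Groups were taken from the sample labels. In R 4.3.3, edgeR 4.0.16 was run on the counts as deposited (filterByExpr, TMM, glmQLFit, glmQLFTest, Benjamini-Hochberg adjustment over all genes tested, threshold 0.05), by line over 16415 genes and by site over 16971, and all 9 members passed the filter in both. Standard errors were derived from the fold change and the F statistic and are approximate. CPM are counts over the TMM-scaled library size. The labels do not name separate litters or batches, so p-values measure the spread between these tumors. The scripts were tested on simulated data first.

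The members and all gene lists (126 genes, all found) were chosen with earlier results of these data known; 1 further list gene is not reported here. The genes named are the members, the list genes and the genes nearest to each member in profile; a further rule for genes past the threshold added none. Alternatives were DESeq2 1.42.0, other scalings and filters, halved counts, site or line as a covariate, trunk or FSP1-Cre;NT3 tumors alone, and leaving out each tumor; DESeq2 without each tumor was added after the data had been seen. DESeq2 gave no adjusted p for Madcam1 by line and Coch by site. Gene positions were compared with the GENCODE annotation of GRCm38, and promoter windows came from RefSeq (GRCm38.p6). Matches on either strand were counted, the consensus being its own reverse complement.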

Additional observations from a re-analysis of the deposited data

Results flagged for a closer look

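Among 18 tests for a tumor standing apart from the rest, run on log2 CPM of the members, 2 passed the 95% critical value of Dixon's ratio of gap to range, where chance gives about 1 in 20. Both flags were for tumor 36, and the tests share tumors, so they are not independent. For Mfge8, tumor 36 lay at 9.38 on the log2 CPM scale and the next tumor at 10.76, a gap of 0.778 of the whole range. For Pdpn, tumor 36 lay at 7.29 and the next at 8.47, a gap of 0.629 of the range.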

How the results depend on the processing

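The number of genes called depended on the tool and on single tumors. edgeR called 0 genes by line, also without any 1 tumor, and DESeq2 called 420. By site edgeR called 0 and DESeq2 605, and leaving out 1 tumor gave from 0 to 567 genes with edgeR (567 without tumor 27, 2 without tumor 25). DESeq2 without tumor 13, 18, 25, 27, 29 and 36 in turn gave 236, 499, 3650, 460, 731 and 196 genes by line and 318, 649, 669, 1492, 731 and 14 by site, and 0 to 1 members by line and 0 to 3 by site. Outside leave-one-out, 2 of 72 refitted member fold changes reversed by line and 3 of 72 by site, and the rest kept their direction and did not pass the threshold. Coch by line turned to -1.20 with site as a covariate and to -1.22 in trunk tumors only. Vcam1 by site turned to 0.0034 with library sizes alone, 0.035 with line as a covariate and 0.031 within FSP1-Cre;NT3. Leaving out each tumor, 7 of 54 reversed by line and 4 of 54 by site. The ranges with a reversal were, by line, -0.73 to 3.96 for Coch, -0.29 to 0.77 for Cr2 and -2.83 to 1.98 for Madcam1, and by site -0.15 to 2.94 for Coch, -1.85 to 0.17 for Cr2, -1.21 to 0.11 for Icam1 and -0.40 to 0.12 for Vcam1. Library sizes alone moved the median log2 fold change of all genes by line from 0.01 to 0.13, and no member reversed by line. The cause was not tested. No paired analysis was possible because the groups share no replicate numbers in the labels. The lowest counts behind a member were 12 for Fcer2a and 18 for Madcam1, and halving the counts reversed no member and changed no call.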
